A study of Mus musculus with 3 samples.

Results

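Aminoacyl-tRNA synthetases, the enzymes that join each amino acid to its transfer RNA, were followed in sorted erythroblasts of mouse embryos at E10.5. The 36 genes were taken by symbol from either of the 2 deposited tables, which together list 15058 genes. They comprise 20 genes for cytosolic enzymes and 16 genes, with symbols ending in 2, for enzymes of the mitochondrial matrix. All 36 were in the tables, and all 36 reached 1 CPM (counts scaled to library size) in at least 1 library of every comparison.

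The cells were CD71-positive erythroblasts, nucleated precursors of red cells, sorted from peripheral blood. There were 3 libraries, 1 in each of 3 groups. The Drosha-null library came from Ter119-high cells of conditional knockout (cKO) embryos of genotype Drosha fl/fl;cdh5-cre+, labelled null for Drosha. The Ter119-low library came from cells with less of the maturation antigen Ter119, taken from embryos of the same genotype, and is labelled as having as much Drosha as wild type. The control library came from Ter119-high cells of embryos labelled Drosha fl/fl or Drosha fl/+. Drosha is the nuclease that cuts primary microRNA transcripts in the nucleus, and the Cre recombinase was driven by Cdh5, an endothelial gene, so the deletion reaches blood cells that descend from cells with that Cre. The design text describes blood of 5 embryos, pooled for RNA preparation. Genotype and Ter119 level both differ between the Ter119-low and control libraries and cannot be told apart there. Between the Drosha-null and Ter119-low libraries, Drosha state and Ter119 level both differ and cannot be told apart either.

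With 1 library a group, no test between conditions was possible. The log2 ratio of scaled counts between 2 libraries is given with a 95% interval for counting error, which does not cover variation between pools of embryos or between preparations. A gene was counted as higher or lower when its ratio was 2 or more either way and this interval excluded 1. In bulk RNA, fewer cells of a type and less RNA per cell cannot be told apart.

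Total counts were 9325814 in the Drosha-null, 9418474 in the Ter119-low and 9497425 in the control library. Drosha itself had 122 counts in the Drosha-null, 244 in the Ter119-low and 324 in the control library, a log2 ratio of −1.81 (95% interval −2.13 to −1.51) for Drosha-null over control and −0.49 (−0.74 to −0.25) for Ter119-low over control. The interval for Ter119-low over control lay below 0, although that library is labelled as having as much Drosha as wild type. These Drosha values are counts over the whole gene, so transcripts that lack a deleted exon would still be in them. All 10 erythroid markers were present in each library, and their summed share of the counts was 16.9% in the Drosha-null, 22.8% in the Ter119-low and 24.6% in the control library. Summed counts of 9 endothelial markers were 257 in the Drosha-null, 99 in the Ter119-low and 90 in the control library, with Tie1 at 0 in the Ter119-low library. Those of 7 cardiac muscle markers were 320 in the Drosha-null, 57 in the Ter119-low and 75 in the control library, with Myh6 at 0 in the Drosha-null and Ter119-low libraries, Myh7 at 0 in the control, Tnnt2 at 0 in the Ter119-low library and Smyd1 at 0 in the Ter119-low and control libraries. In the Drosha-null library Pecam1 had 55 counts and Ttn 181 of the 320 cardiac muscle counts, against 3 for Pecam1 and 37 for Ttn in the control. Of 7 endothelial markers measured for Drosha-null over control, 2 were counted higher and 0 lower, with a median log2 ratio of 0.97. Of 4 cardiac muscle markers measured there, 3 were counted higher and 0 lower. Tek had 25 counts in the Drosha-null and 4 in the control library, and Actc1 86 in the Drosha-null and 19 in the control. Smyd1 had 27 counts in the Drosha-null library and 0 in the control. Not all markers of these lists rose. Kdr had 26 counts in the Drosha-null and 22 in the control library, a log2 ratio of −0.17. Tnnt2 had 20 in the Drosha-null and 16 in the control library, a log2 ratio of −0.09, and Myl7 had 1 count in each of them. Summed megakaryocyte and platelet markers had 138 counts in the Drosha-null, 119 in the Ter119-low and 98 in the control library, with Pf4 at 0 in the Drosha-null and Ppbp at 0 in the Drosha-null and Ter119-low libraries. Summed macrophage markers had 56 counts in the Drosha-null, 24 in the Ter119-low and 49 in the control library, and those of mesenchyme, liver and epithelium 40 in the Drosha-null, 38 in the Ter119-low and 30 in the control library. The part of these other cells, and of the lower erythroid share, in the synthetase values was not tested.

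A synthetase activates its amino acid with ATP and transfers it to the tRNA, and the fidelity of translation rests on this step. The enzymes fall into class I and class II, which differ in the fold of the catalytic domain. In the cytosol, several synthetases are held with scaffold proteins in the multisynthetase complex, while mitochondria use a separate set encoded by other nuclear genes, apart from glycyl- and lysyl-tRNA synthetases, whose genes Gars and Kars serve both compartments. Uncharged tRNA activates the kinase GCN2, which phosphorylates eIF2 and raises translation of the transcription factor ATF4, and many cytosolic synthetase genes are reported as ATF4 targets. In erythroblasts the related kinase HRI, the product of Eif2ak1, acts on eIF2 when heme is low.

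The core of the amino acid response element to which ATF4 binds, searched as TGATGNAA on either strand (TTNCATCA on the other), was looked for in the RefSeq promoters of assembly GRCm38.p6, which run from 250 bases before to 50 bases after each gene's start. Of the 36 genes, 27 matched an entry of that table. Cars, Hars, Lars, Nars, Rars, Vars, Wars, Hars2 and Pars2 did not and were not searched. The core was found in 5 of 13 cytosolic genes (38.5%) and 0 of 14 mitochondrial genes, against 1219 of all 27025 genes with a promoter there (4.51%). A match is a description of the letters and not evidence of binding. The 5 promoters are shown because the cytosolic genes are set beside the ATF4 list later, with every match in capitals and each sequence on its gene's own strand. They lie at chr4:129189653-129189952 on the plus strand for Yars, chr6:55037751-55038050 on the plus strand for Gars, chr8:111033592-111033891 on the plus strand for Aars, chr13:49681880-49682179 on the plus strand for Iars and chr15:11399609-11399908 on the minus strand for Tars.
Yars: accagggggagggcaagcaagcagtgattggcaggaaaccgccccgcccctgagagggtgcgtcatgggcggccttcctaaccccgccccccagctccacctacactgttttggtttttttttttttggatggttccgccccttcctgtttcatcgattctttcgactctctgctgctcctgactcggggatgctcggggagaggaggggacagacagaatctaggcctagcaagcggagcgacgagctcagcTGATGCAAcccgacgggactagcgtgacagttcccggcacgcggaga
Gars: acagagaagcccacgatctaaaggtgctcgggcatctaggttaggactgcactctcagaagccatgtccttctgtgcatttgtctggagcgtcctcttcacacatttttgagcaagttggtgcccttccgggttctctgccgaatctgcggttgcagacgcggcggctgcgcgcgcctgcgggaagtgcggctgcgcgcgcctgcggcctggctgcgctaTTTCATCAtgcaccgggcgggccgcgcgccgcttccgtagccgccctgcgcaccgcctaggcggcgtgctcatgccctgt
Aars: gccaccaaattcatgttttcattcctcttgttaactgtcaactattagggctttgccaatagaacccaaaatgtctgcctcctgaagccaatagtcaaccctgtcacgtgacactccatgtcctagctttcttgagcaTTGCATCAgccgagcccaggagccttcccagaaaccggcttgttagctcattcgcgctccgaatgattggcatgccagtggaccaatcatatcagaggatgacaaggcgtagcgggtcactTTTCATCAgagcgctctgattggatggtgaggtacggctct
Iars: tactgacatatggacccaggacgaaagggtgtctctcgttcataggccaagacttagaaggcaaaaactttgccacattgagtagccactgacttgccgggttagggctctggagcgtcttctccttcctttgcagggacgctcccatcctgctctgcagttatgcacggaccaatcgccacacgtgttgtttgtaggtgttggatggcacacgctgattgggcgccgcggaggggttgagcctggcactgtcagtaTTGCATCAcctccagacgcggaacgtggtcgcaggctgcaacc
Tars: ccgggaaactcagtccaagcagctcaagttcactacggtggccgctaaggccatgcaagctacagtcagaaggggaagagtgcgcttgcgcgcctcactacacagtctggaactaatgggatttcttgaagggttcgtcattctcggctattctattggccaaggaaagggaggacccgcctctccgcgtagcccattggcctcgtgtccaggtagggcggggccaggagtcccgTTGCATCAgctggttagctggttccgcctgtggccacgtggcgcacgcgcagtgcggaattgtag
In Aars the core is present at 2 places, and in the other 4 promoters at 1 place. The 5 genes did not move alike between the Drosha-null and control libraries, where Yars had a log2 ratio of −1.13, Tars −0.66, Iars −0.35, Aars −0.08 and Gars 0.01.

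Levels are compared between genes as FPKM, the authors' counts scaled to gene length and library size. FPKM is not scaled for the composition of each library, unlike the log2 ratios of scaled counts. Between libraries the FPKM of a gene or group can therefore differ in another direction than those ratios. The median FPKM of the 20 cytosolic genes was 34.0 in the Drosha-null, 32.9 in the Ter119-low and 31.75 in the control library. The 16 mitochondrial genes had medians of 4.725 FPKM in the Drosha-null, 3.81 in the Ter119-low and 4.14 in the control library, and all listed genes had 2.90 in the Drosha-null, 2.275 in the Ter119-low and 1.72 in the control library. Nars, which charges asparagine tRNA, was the most abundant synthetase in each library, at 108.02 FPKM in the Drosha-null, 169.75 in the Ter119-low and 157.71 in the control library. Behind it stood Lars2, the mitochondrial leucyl enzyme, at 76.67 FPKM in the Drosha-null, 93.13 in the Ter119-low and 75.09 in the control library.

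The other highly ranked cytosolic genes formed a broad group. In the Drosha-null library Kars (lysine), Iars (isoleucine), Gars (glycine), Farsb (the beta subunit for phenylalanine), Eprs (the fused enzyme for glutamate and proline), Rars (arginine) and Dars (aspartate) lay between 52.73 and 61.04 FPKM. In the control the same 7 genes lay between 41.77 and 59.16 FPKM. Farsa, the catalytic alpha subunit that pairs with Farsb, was lower than its partner at 24.91 FPKM in the Drosha-null, 20.94 in the Ter119-low and 22.93 in the control library. The lowest cytosolic gene was Cars (cysteine), at 5.88 FPKM in the Drosha-null, 7.84 in the Ter119-low and 5.69 in the control library. Hars (histidine), Aars (alanine), Vars (valine), Mars (methionine), Lars (leucine), Qars (glutamine), Tars (threonine), Sars (serine), Wars (tryptophan) and Yars (tyrosine) filled the range from 45.36 down to 10.84 FPKM in the Drosha-null library and from 35.54 down to 17.52 FPKM in the control. Yars was lowest of these 10 genes in each library, at 10.84 FPKM in the Drosha-null, 16.66 in the Ter119-low and 17.52 in the control library, level with Sars at 16.66 in the Ter119-low library. Wars was at 14.67 FPKM in the Drosha-null, 21.04 in the Ter119-low and 20.04 in the control library. Both were lower in rank in the Drosha-null library than in the control among all genes, Yars standing at the percentile 74.5 in the Drosha-null and 86.4 in the control library and Wars at 80.2 in the Drosha-null and 88.1 in the control library.

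The mitochondrial genes below Lars2 began with Iars2 at 17.37 FPKM in the Drosha-null, 14.87 in the Ter119-low and 12.25 in the control library. The other 14 lay between 1.04 FPKM (Pars2, proline) and 9.50 FPKM (Yars2) in the Drosha-null library and between 0.67 FPKM (Aars2) and 10.03 FPKM (Rars2) in the control. Aars2 was at 1.98 FPKM in the Drosha-null, 1.38 in the Ter119-low and 0.67 in the control library, and Ears2 at 1.37 FPKM in the Drosha-null, 1.36 in the Ter119-low and 2.64 in the control library. Sars2 was at 4.48 FPKM in the Drosha-null, 2.02 in the Ter119-low and 1.94 in the control library, and Fars2 at 8.50 FPKM in the Drosha-null, 5.47 in the Ter119-low and 3.85 in the control library. Pars2 was at 1.04 FPKM in the Drosha-null, 1.62 in the Ter119-low and 1.66 in the control library, and Hars2 at 3.63 FPKM in the Drosha-null, 4.55 in the Ter119-low and 4.72 in the control library. These 6 genes were named for the 3 highest and 3 lowest Drosha-null over control ratios, so their split between these libraries follows from that choice.

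Each mitochondrial gene was paired with the cytosolic gene for the same amino acid, Eprs serving for Ears2 and Pars2 and Farsa for Fars2. The cytosolic gene had the higher FPKM in 15 of 16 pairs in each library, with Lars and Lars2 as the exception. The Lars level was 0.341 of the Lars2 level in the Drosha-null, 0.332 in the Ter119-low and 0.357 in the control library. The median ratio of cytosolic to mitochondrial level was 5.31 in the Drosha-null, 8.25 in the Ter119-low and 7.07 in the control library.

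The Lars2 level carries a limit. Its counts were fractional in the tables, at 2729.68 in the Drosha-null, 3350.63 in the Ter119-low and 2725.48 in the control library, and Wars2 was the other member with fractional counts. In GENCODE M21 transcripts, 42 stretches of 31 bases in Lars2, between positions 3172 and 3329, also occur in other genes, 26 of them in AA474408, so reads there could have come from either gene. Other members share more of their transcript with an overlapping or similar gene, among them Aars with 1296 such stretches in Exosc6, Iars with 767 in Gm4849, Cars2 with 368 in Naxd, and Hars with 165 in Hars2. The Aars transcript compared had 5750 bases, against a deposited gene length of 3728, and its shared stretches lay between positions 4425 and 5750. They may therefore lie outside the Aars sequence that was counted. Only GENCODE M21 transcripts were compared, so stretches shared with sequences outside them would not be seen. How far shared stretches moved the counts of any member was not tested.

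**Figure D1:**
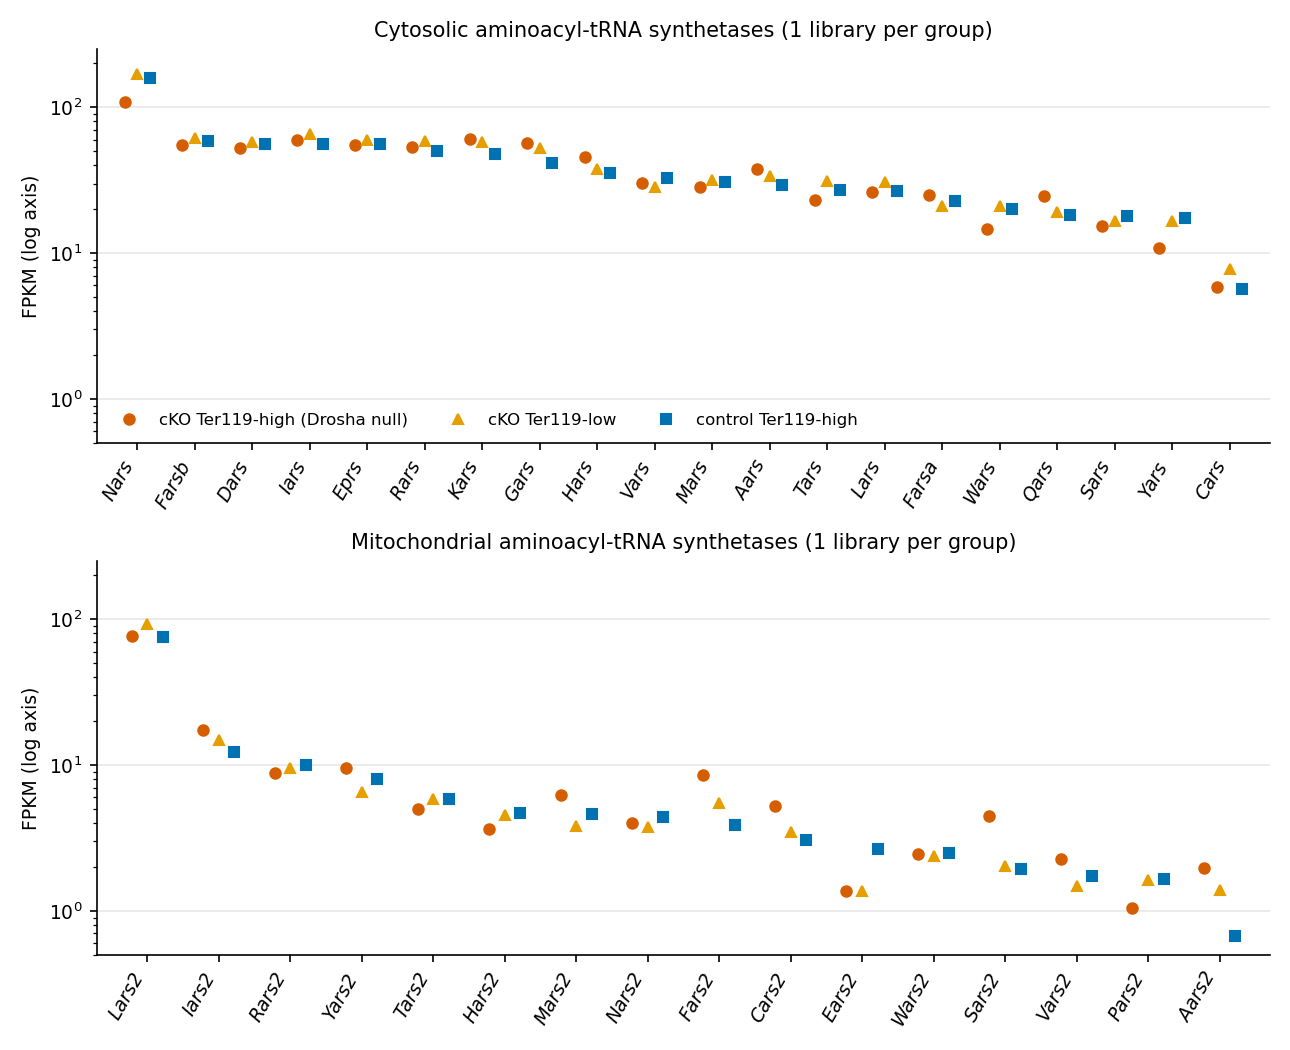
FPKM of each of the 36 synthetase genes on a log axis in the 3 libraries (1 library a group, no error bars), with cytosolic and mitochondrial genes apart. Nars leads the cytosolic genes and Lars2 the mitochondrial genes in every library, and most mitochondrial genes sit below the cytosolic ones.

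Most cytosolic synthetases had somewhat lower scaled counts in the Drosha-null library than in the control, and few passed the size rule. Their median log2 ratio was −0.46, with a range of −1.13 to 0.04, where all 10769 genes tested had a median of −0.02 and quartiles of −0.47 and 0.52. Of the 20 genes 1, Yars, was counted lower and 0 higher, where 7.79% of all genes tested were lower, 12.4% higher and 20.2% either way. The ratio lay below the all-gene median for 18 of 20 genes, the exceptions being Gars and Qars, and the counting interval lay below 0 for 15 and above 0 for 0, where it excluded 0 in either direction for 59.9% of all genes tested. Such a share depends on count depth, and the cytosolic genes had a higher median FPKM than all listed genes. The share of intervals that exclude 0 among genes of like abundance is not given. Among the 4854 genes in the same range of abundance the median was −0.08, and 6.49% were counted higher and 5.54% lower. The cytosolic median was −0.30 once the median of each abundance class was subtracted, and −0.29 with totals that leave out ribosomal RNA and the 10 most abundant genes. Summed over the 20 genes, counts were 20780 in the Drosha-null and 21794 in the control library, a scaled log2 ratio of −0.48 (−0.50 to −0.45).

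By total counts in place of TMM the cytosolic median was −0.03 and 9 of the 20 ratios were above 0, while the median of all genes was 0.41. A change of scaling moves every gene by the same amount, so the distance of the group from the median of all genes is the same under both by construction. The all-gene median of −0.02 is the base against which the ratios of single genes stand.

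Yars, the tyrosyl enzyme, had 284 counts in the Drosha-null, 441 in the Ter119-low and 468 in the control library. After scaling this was 25.5 CPM in the Drosha-null, 49.5 in the Ter119-low and 55.7 in the control library, so both other libraries stood well above the Drosha-null one. Its log2 ratio of Drosha-null over control was −1.13 (−1.35 to −0.91). Yars was no longer past the size rule by total counts, with FPKM, or with ribosomal RNA and the 10 most abundant genes left out of the totals.

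Nars had 2615 counts in the Drosha-null, 4153 in the Ter119-low and 3893 in the control library, or 235 scaled CPM in the Drosha-null, 466 in the Ter119-low and 463 in the control library. The Ter119-low and control libraries were nearly level and the Drosha-null library was apart from both. Its log2 ratio of Drosha-null over control was −0.98 (−1.05 to −0.91), just inside the 2-fold limit and therefore not counted, and lower than the ratios of all but 8.77% of genes. Wars, the tryptophanyl enzyme, had 373 counts in the Drosha-null, 495 in the Ter119-low and 468 in the control library and a Drosha-null over control log2 ratio of −0.73 (−0.93 to −0.54).

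At the other end stood genes whose scaled level hardly differed. Qars, which charges glutamine tRNA, had 515 counts in the Drosha-null, 405 in the Ter119-low and 377 in the control library, and its log2 ratio of Drosha-null over control was 0.04 (−0.15 to 0.24). Gars had 1231 counts in the Drosha-null, 1144 in the Ter119-low and 923 in the control library and a log2 ratio of 0.01 (−0.12 to 0.13). Aars had 1285 counts in the Drosha-null, 1176 in the Ter119-low and 1023 in the control library and a log2 ratio of −0.08 (−0.20 to 0.04). Hars, with 817 in the Drosha-null, 684 in the Ter119-low and 653 in the control library, was also at −0.08. The other 13 cytosolic genes had log2 ratios from −0.66 (Sars and Tars) to −0.11 (Kars).

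The cytosolic genes were also divided by what is known of the enzymes. The 8 enzymes of the multisynthetase complex had a median log2 ratio of −0.40 between the Drosha-null and control libraries, and the 12 outside it −0.54. Across both compartments the median was −0.40 for 19 class I genes and −0.52 for 17 class II genes. The 12 cytosolic genes reported as ATF4 targets had a median of −0.51, and the other 8 a median of −0.32. None of these differences was tested.

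**Figure D2:**
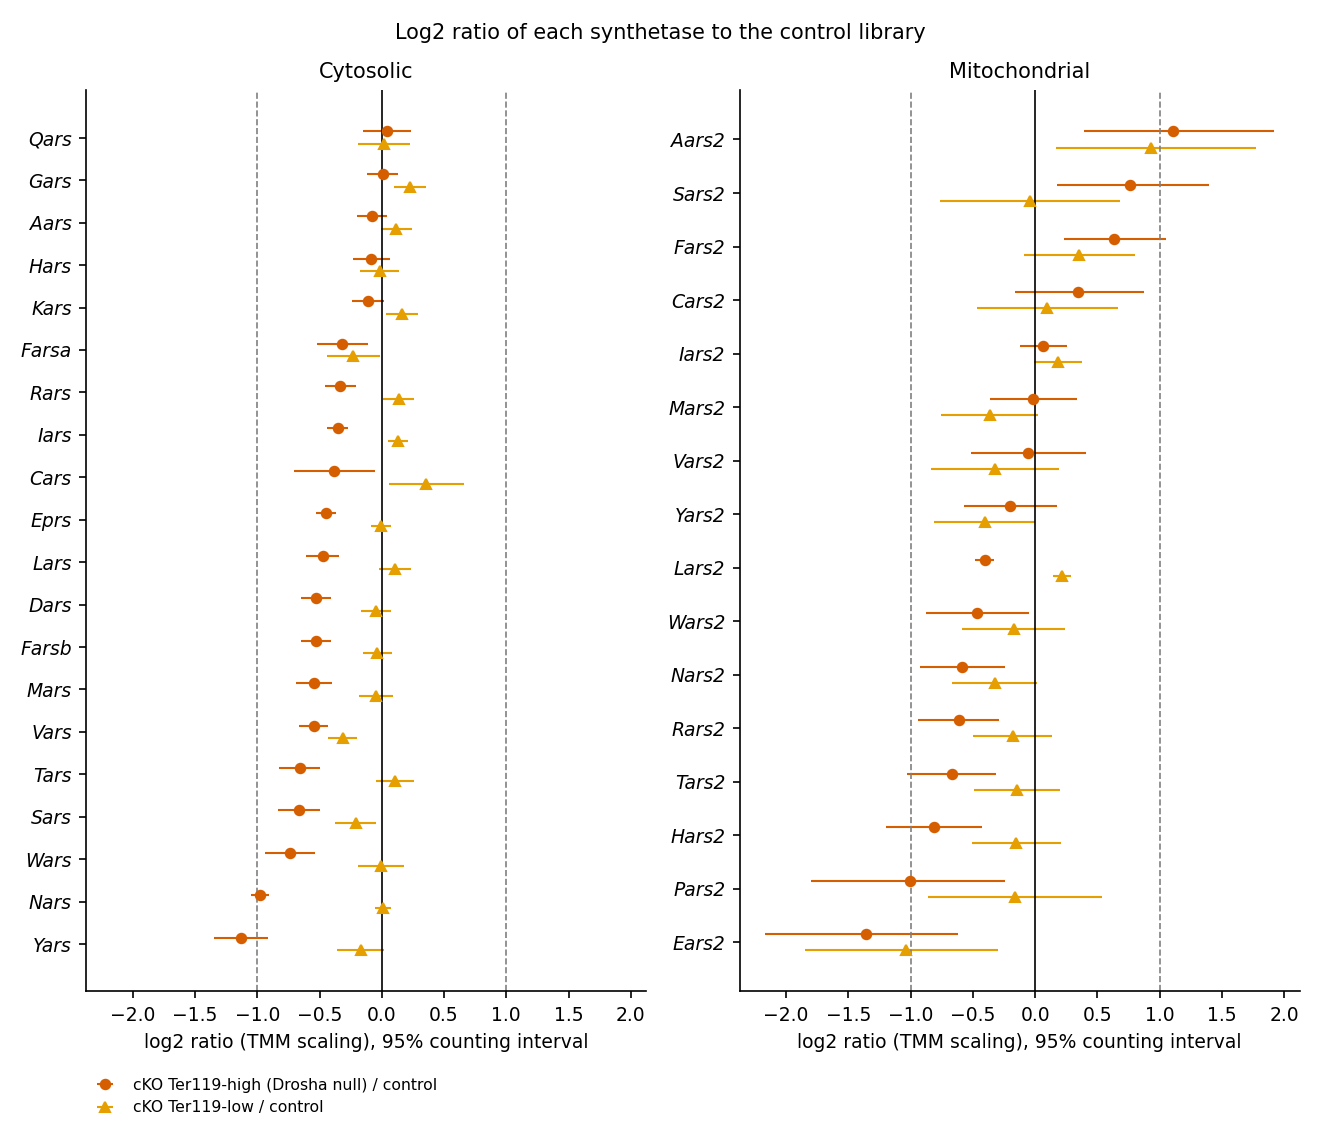
Log2 ratio of scaled counts for each synthetase, for Drosha-null over control and Ter119-low over control, with 95% counting intervals as bars and a line at 0. Yars and Nars stand lowest among cytosolic genes for Drosha-null over control. The Ter119-low over control ratios of all 20 cytosolic genes lie between −0.31 and 0.36.

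The mitochondrial synthetases were more scattered. Between the Drosha-null and control libraries 1 of 16, Aars2, was counted higher and 2, Ears2 and Pars2, lower, that is 6.25% and 12.5% of them. These shares are near those of all genes tested, 12.4% higher and 7.79% lower, and set the mitochondrial genes apart in neither direction. The median log2 ratio was −0.30, with a range of −1.36 to 1.11, and 6 genes lay above the all-gene median and 10 below it. The interval lay above 0 for 3 genes and below 0 for 8, that is 68.75% of them, where it excluded 0 for 59.9% of all genes tested. The sign of this median turned with the scaling, being 0.13 by total counts, where the median of all genes was 0.41.

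Aars2, the mitochondrial alanyl enzyme, had 61 counts in the Drosha-null, 43 in the Ter119-low and 21 in the control library, or 5.47 scaled CPM in the Drosha-null, 4.83 in the Ter119-low and 2.50 in the control library. Both cKO libraries were thus above the control. Its log2 ratio of Drosha-null over control was 1.11 (0.39 to 1.92). It was counted higher under every alternative that measured it, and the filter at 10 CPM did not. Within the alanine pair, Aars had 19.0 times the FPKM of Aars2 in the Drosha-null library, 24.7 times in the Ter119-low and 43.8 times in the control.

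Fars2 and Sars2, the phenylalanyl and mitochondrial seryl enzymes, were also more abundant in the Drosha-null library without reaching the size rule. Sars2 had 77 counts in the Drosha-null, 35 in the Ter119-low and 34 in the control library, and its log2 ratio of Drosha-null over control was 0.76 (0.17 to 1.40). Fars2 had 157 counts in the Drosha-null, 103 in the Ter119-low and 76 in the control library and a log2 ratio of 0.63 (0.24 to 1.05). By total counts both passed, with log2 ratios of 1.19 for Sars2 and 1.07 for Fars2.

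Ears2, the mitochondrial glutamyl enzyme, had 23 counts in the Drosha-null, 23 in the Ter119-low and 45 in the control library, so the low value was shared by both cKO libraries. Its log2 ratio of Drosha-null over control was −1.36 (−2.17 to −0.62). Pars2, the mitochondrial prolyl enzyme, had 25 counts in the Drosha-null, 36 in the Ter119-low and 38 in the control library, and its scaled level was 0.499 times that of the control in the Drosha-null library (0.287 to 0.843), at the edge of the size rule. Both calls were lost by total counts and with FPKM, and that of Pars2 also under DESeq2 scaling, with 2 counts added, and with totals that leave out ribosomal RNA and the 10 most abundant genes. The next lowest was Hars2, the mitochondrial histidyl enzyme, with 102 counts in the Drosha-null, 129 in the Ter119-low and 135 in the control library and a log2 ratio of −0.81 (−1.20 to −0.43).

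The remaining 10 mitochondrial genes had Drosha-null over control log2 ratios from −0.67 (Tars2) to 0.35 (Cars2). Lars2, which makes up more than the other 15 together by count, had a ratio of −0.40, and without it the median of the group was −0.20. In 11 of 16 pairs the ratio of the mitochondrial gene was above that of its cytosolic counterpart, and in 5 below, with a median difference of 0.41 on the log2 scale. The difference was widest for serine, where Sars2 had 0.76 and Sars −0.66, and ran the other way most for glutamate, where Ears2 had −1.36 and Eprs −0.45. Because each pair is compared within the same libraries, this difference does not depend on the scaling factor.

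**Figure D3:**
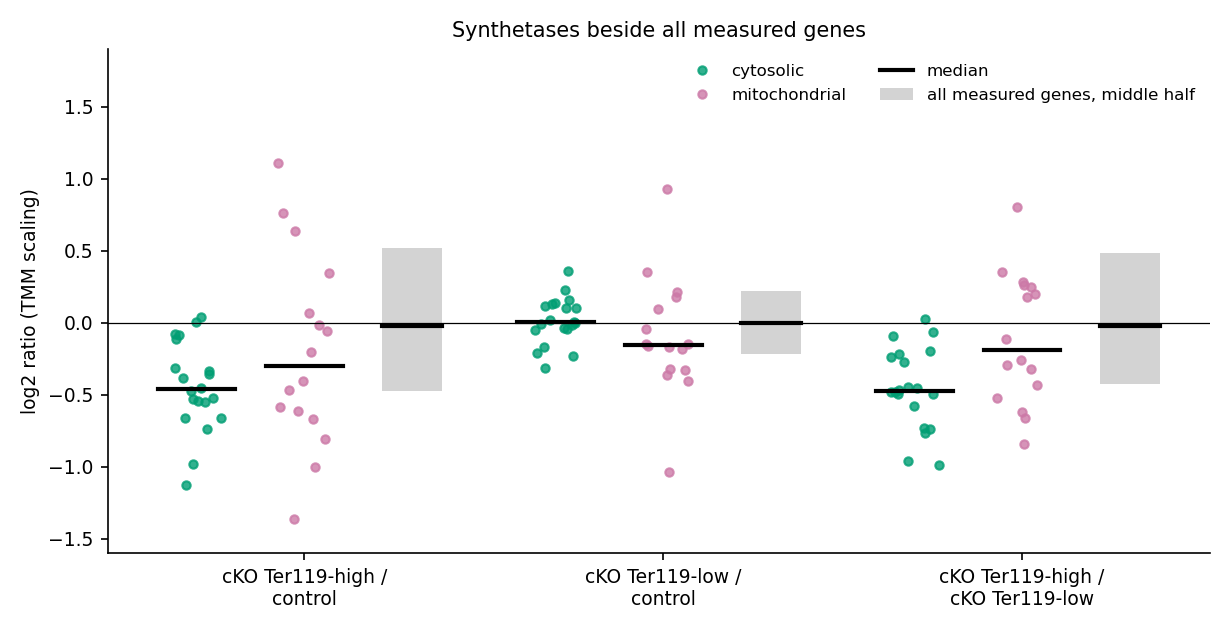
Log2 ratios of the synthetases by compartment in each pair of libraries, a point for each gene, with group medians and the median of all genes tested. The cytosolic medians are −0.46, 0.00 and −0.47 for Drosha-null over control, Ter119-low over control and Drosha-null over Ter119-low, and the mitochondrial medians are −0.30, −0.16 and −0.19.

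The Ter119-low library, from embryos of the same genotype, was close to the control in its cytosolic synthetases. None of the 20 was counted higher or lower, where 2.9% of all genes tested were higher, 2.76% lower and 5.66% either way. Their median log2 ratio was 0.00 and the median of all genes 0.00, and all 20 lay within 0.5 of 0, as did 78.35% of all genes. In the range of abundance of these genes few others were counted either, 0.05% of 3885 genes in each direction. The highest ratios were those of Cars, with 216 counts in the Ter119-low and 159 in the control library and a log2 ratio of 0.36 (0.06 to 0.66), Gars at 0.23 (0.10 to 0.35) and Kars at 0.16 (0.03 to 0.29), with 1070 Kars counts in the Ter119-low and 903 in the control library. The lowest was Vars, with 1110 counts in the Ter119-low and 1301 in the control library, at −0.31 (−0.43 to −0.20). Farsa, with 351 counts in the Ter119-low and 388 in the control library, was at −0.23 (−0.44 to −0.02), and Sars, with 561 counts in the Ter119-low and 612 in the control library, at −0.21 (−0.38 to −0.04).

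Among the 16 mitochondrial genes, Ears2 was counted lower in the Ter119-low library than in the control and 0 were counted higher. Of all genes tested, 2.76% were lower and 2.9% higher. The mitochondrial median log2 ratio was −0.16, with a range of −1.04 to 0.93. Ears2 had a log2 ratio of −1.04 (−1.84 to −0.30), which by total counts was not counted. Yars2 had 93 counts in the Ter119-low and 116 in the control library, at −0.40, and Mars2, the methionyl enzyme, 102 in the Ter119-low and 124 in the control library, at −0.36 (−0.76 to 0.02). Aars2 was at 0.93 (0.17 to 1.78), short of the size rule, Fars2 at 0.35 (−0.09 to 0.80) and Lars2 at 0.21 (0.14 to 0.29). Both comparisons with the control use the same control library, so a low or high control count, as of Aars2 and Ears2, enters both.

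The comparison of the Drosha-null with the Ter119-low library does not use the control. It sets Ter119-high against Ter119-low cells, so Drosha state and Ter119 level both differ and cannot be told apart. None of the 20 cytosolic genes was counted in it, where 10.8% of all genes tested were higher, 5.94% lower and 16.8% either way. Among the 4123 genes in the same range of abundance, 4.51% were higher and 3.30% lower. The cytosolic median log2 ratio was −0.47 against −0.02 for all genes. The ratio was below the all-gene median for 19 of 20 genes, with Qars at 0.02 as the exception, and the interval lay below 0 for 17, where it excluded 0 in either direction for 56.7% of all genes tested. Here too the share depends on count depth. The lowest cytosolic ratios were those of Nars at −0.99 (−1.06 to −0.92), Yars at −0.96 (−1.18 to −0.74) and Tars, with 554 counts in the Drosha-null library and 752 in the Ter119-low one, at −0.76 (−0.92 to −0.60). The highest beside Qars were Hars at −0.07 (−0.21 to 0.08) and Farsa, with 413 counts in the Drosha-null library and 351 in the Ter119-low one, at −0.09 (−0.30 to 0.12). By total counts the cytosolic median was −0.14 and the median of all genes 0.32. The cytosolic median was −0.31 once the median of each abundance class was subtracted. The interval lay below 0 for 12 of the 12 genes reported as ATF4 targets, with a median of −0.54, and for 5 of the other 8, with a median of −0.25. The difference between these lists was not tested.

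No mitochondrial synthetase was counted between the Drosha-null and Ter119-low libraries either. Their median log2 ratio was −0.19, with 7 of 16 above the all-gene median. Sars2 was highest at 0.80 (0.22 to 1.43), followed by Mars2, with 163 counts in the Drosha-null library and 102 in the Ter119-low one, at 0.35 (−0.01 to 0.72) and Fars2 at 0.28 (−0.08 to 0.66). Pars2 was lowest at −0.84 (−1.65 to −0.07), then Hars2 at −0.66 (−1.05 to −0.28) and Lars2 at −0.62 (−0.69 to −0.55). Aars2, the gene counted higher against the control, was at 0.18 (−0.41 to 0.78). The mitochondrial gene had the higher ratio in 13 of 16 pairs, with a median difference of 0.37.

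Genes that work beside the synthetases were compared in the same way. The 3 scaffold proteins of the multisynthetase complex, Aimp1, Aimp2 and Eef1e1, had Drosha-null over control log2 ratios of −0.30, −0.39 and −0.64, with 0 of 3 counted. Of all genes tested, 12.4% were higher and 7.79% lower in that comparison. The levels of the scaffold genes lay between 25.71 and 37.48 FPKM over the 3 libraries. Of 4 measured genes for the editing of mischarged tRNA, 0 were counted and the median was −0.43. The most abundant were Aarsd1, an alanyl-tRNA editing protein, at 22.09 FPKM in the Drosha-null, 25.50 in the Ter119-low and 21.80 in the control library, and Dtd1, a D-aminoacyl-tRNA deacylase, at 18.11 in the Drosha-null, 14.33 in the Ter119-low and 14.71 in the control library. The 4 partners of mitochondrial charging, which include Gatc of the glutamyl-tRNA amidotransferase and the formyltransferase Mtfmt, had a median of −0.23 with 0 counted, Gatc being at 27.11 FPKM in the Drosha-null, 22.97 in the Ter119-low and 20.48 in the control library. Pstk, the kinase that phosphorylates seryl-tRNA on the way to selenocysteine, had 43 counts in the Drosha-null, 81 in the Ter119-low and 70 in the control library and was lower at a log2 ratio of −1.10. It was also lower against the Ter119-low library, at −1.23. Sepsecs, the enzyme of the next step, was at 0.57 for Drosha-null over control.

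Among 14 genes of tRNA maturation and export, 1 was higher and 2 lower in the Drosha-null library than in the control. These counts stand beside 12.4% higher and 7.79% lower of all genes tested and do not set the list apart. The median log2 ratio was −0.18. Tsen34, a subunit of the endonuclease that removes tRNA introns, was higher, with 60 counts in the Drosha-null, 17 in the Ter119-low and 12 in the control library and a log2 ratio of 1.87. Thg1l, which adds the extra guanosine of histidine tRNA, was lower at −1.62, with 56 counts in the Drosha-null, 86 in the Ter119-low and 130 in the control library. Trnt1, which adds the terminal CCA to tRNA, was lower at −1.03, with 231 counts in the Drosha-null, 372 in the Ter119-low and 355 in the control library. The most abundant were Hsd17b10, a subunit of mitochondrial RNase P, at 50.89 FPKM in the Drosha-null, 35.92 in the Ter119-low and 37.11 in the control library, and Ssb, the La protein that binds the ends of nascent tRNA, at 43.80 FPKM in the Drosha-null, 38.94 in the Ter119-low and 36.54 in the control library, both with ratios within 0.5 of 0. Against the Ter119-low library, Tsen34 was higher at 1.47, and Trnt1 at −1.01 and Tsen54, another endonuclease subunit, at −1.33 were lower.

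The list of the amino acid response, regulated by ATF4, held most of the partner genes that were lower in the Drosha-null library. Of its 20 measured members 8 were lower and 0 higher than in the control, where 7.79% of all genes tested were lower and 12.4% higher. The list was chosen with earlier results of these data known, so this count is a description and not a test. The median log2 ratio was −0.62, against −0.02 for all genes. Atf4, at 77.07 FPKM in the Drosha-null, 155.70 in the Ter119-low and 147.36 in the control library, had 1208 counts in the Drosha-null, 2467 in the Ter119-low and 2357 in the control library, a log2 ratio of −1.37 for Drosha-null over control. Asns, which makes asparagine, the amino acid that the Nars product charges, had 801 counts in the Drosha-null, 1482 in the Ter119-low and 1606 in the control library and a log2 ratio of −1.41. For both, the Ter119-low and control libraries were close to each other and the Drosha-null library was well below. The lowest ratios among members with more counts were those of Trib3, a pseudokinase that restrains ATF4, at −2.35, and Pycr1, of proline synthesis, at −2.24.

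The other 4 lower members were Atf5, a related transcription factor, at −1.44, the serine pathway enzymes Phgdh at −1.14 and Shmt2 at −1.12, and Slc7a3, a cationic amino acid transporter with 3 counts in the Drosha-null and 25 in the control library. Not all members were low. Psat1, also of serine synthesis, was at 0.20 and Sesn2, an inhibitor of mTORC1 signalling, at 0.69, and Slc7a11, the cystine transporter, at −0.46 was not counted. In the Ter119-low library 1 of 20 members, Slc7a3 with 4 counts, was lower than in the control, where 2.76% of all genes tested were lower, and the median was −0.14. Against the Ter119-low library, Atf4 (−1.35), Asns (−1.21), Trib3 (−2.01) and Pycr1 (−2.08) were lower in the Drosha-null library, 4 of 19 measured, where 5.94% of all genes tested were lower. By total counts the median of the list for Drosha-null over control was −0.19, with 0.41 for all genes. Of the 11 partner genes lower than in the control, 5 were past the size rule by that scaling (Trib3, Pycr1, Atf5, Slc7a3 and Thg1l), and Atf4 at −0.94 and Asns at −0.98 were not. Against the Ter119-low library Atf4 remained past it at −1.02 by total counts and Asns, at −0.87, did not.

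Of the 4 kinases that phosphorylate eIF2, Eif2ak1, the heme-regulated kinase, was by far the most abundant, at 82.40 FPKM in the Drosha-null, 78.63 in the Ter119-low and 71.02 in the control library, with a log2 ratio of −0.22 for Drosha-null over control. Eif2ak2, the kinase activated by double-stranded RNA, was higher in the Drosha-null library, with 232 counts in the Drosha-null, 94 in the Ter119-low and 85 in the control library and a log2 ratio of 1.04. Eif2ak4, the GCN2 kinase that senses uncharged tRNA, was at 0.07 with 96 counts in the Drosha-null, 69 in the Ter119-low and 69 in the control library. Eif2ak3, the remaining kinase, had 68 counts in the Drosha-null, 43 in the Ter119-low and 28 in the control library. Its log2 ratio of Drosha-null over control was 0.86 (0.22 to 1.56), short of the size rule. Of the 4 kinases 1 was thus counted higher, where 12.4% of all genes tested were higher. All these values are transcript levels, and neither phosphorylation of eIF2 nor charging of tRNA was measured.

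**Figure D4:**
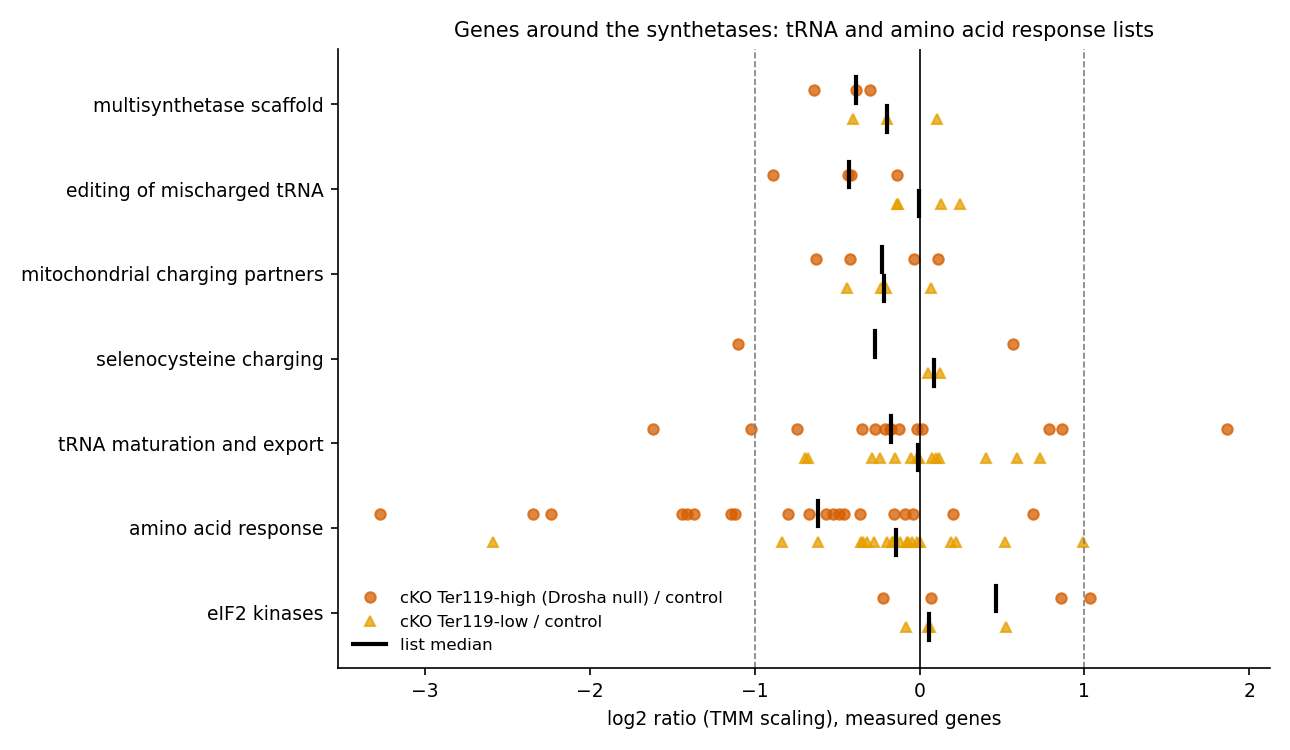
Log2 ratios of genes in the partner lists, a point for each gene, for Drosha-null over control and Ter119-low over control, with list medians. The amino acid response list has a median of −0.62 for Drosha-null over control and −0.14 for Ter119-low over control, while the eIF2 kinases have 0.46 for Drosha-null over control.

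The authors' deposited table gives log2 ratios of FPKM, which are not scaled for composition. In it the Drosha-null over control ratio was 1.56 for Aars2, −0.95 for Ears2, −0.69 for Yars and −0.67 for Pars2. The cytosolic genes had a median of −0.03 in the authors' deposited table, with 9 above and 11 below 0, and the mitochondrial genes 0.14, with 9 above and 7 below.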

How the data were processed

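RNA sequencing of total RNA was analysed in 3 libraries, 1 in each of 3 groups, assigned by their labels. Per the file headers and values, the 2 deposited tables hold the authors' expected counts (estimated counts) per gene, fractional for 1309 of the 15058 genes, and FPKM values the authors made from them by gene length and library size. They also hold the authors' log2 ratio of the FPKM columns, and p-values between those columns, from a test that is not named. The deposited p-values were not used. Values above 1 occur in the deposited FDR column, which was not used either. The genome build, the annotation and the programs for alignment and counting were not given in the sources used here.

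In the Drosha-null table there are 14640 genes, and 14300 are in the Ter119-low one. The 13882 shared genes have 0 differing control counts, and the tables were joined by gene ID. Expected counts were rounded to whole numbers and scaled by the TMM method (edgeR 4.0.16, R 4.3.3). The TMM factors were 1.19 for the Drosha-null, 0.946 for the Ter119-low and 0.885 for the control library. Ribosomal RNA, kept in the totals, took 27.9% of the counts in the Drosha-null, 28.5% in the Ter119-low and 28.7% in the control library. Log2 ratios had 0.5 counts added and exact 95% Clopper-Pearson intervals, over genes at 1 CPM or more in either library. Intervals cover counting error only, since no molecular identifiers are described, and nothing says how far the pools represent other embryos. No model was fitted. The procedure was tested on simulated data.

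Every synthetase was reported, with full values for those counted in any comparison and for the 3 highest and 3 lowest ratios per compartment, and from partner lists the members counted and the 2 most abundant. The members and lists were chosen with earlier results of these data known. The alternatives were DESeq2 1.42.0 size factors, total counts, total counts without ribosomal RNA and the 10 most abundant genes, FPKM with 0.1 added, 2 counts added, filters at 10 CPM and none, a fold of 1.5, and subtraction of the median of each of 10 classes of length or of abundance. Promoters are from RefSeq and shared stretches of 31 bases from GENCODE M21 transcripts. Other software was matplotlib 3.10.9, pandas 2.3.3, SciPy 1.17.1 and NumPy 2.4.6 under Python 3.11.15.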

Additional observations from a re-analysis of the deposited data

How the results depend on the processing

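No paired analysis was possible because each group has 1 library, which also leaves no replicate to omit. No synthetase changed the sign of a called ratio. The values that moved are given by comparison, and the cause was not tested beyond what each setting changes by construction.

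For Drosha-null over control, the number of cytosolic genes counted lower (1) was 0 with FPKM, by total counts and by totals without ribosomal RNA and the 10 most abundant genes, and 5 at a fold of 1.5. The cytosolic median (−0.46) was −0.0273 with FPKM, −0.0290 by total counts, −0.29 without ribosomal RNA and −0.30 after subtracting the median of each abundance class. Mitochondrial genes counted higher (1) were 0 under the 10 CPM filter, and 3 with FPKM, by total counts and at a fold of 1.5. Those lower (2) were 0 under the 10 CPM filter, with FPKM and by total counts, 1 with 2 counts added, DESeq2 scaling or no ribosomal RNA, and 5 at a fold of 1.5. The mitochondrial median (−0.30) reversed to 0.13 with FPKM and by total counts. Over all genes, 1333 were higher and 839 lower. These became 510 and 398 under the 10 CPM filter, 2337 and 327 with FPKM, 2105 and 1897 at a fold of 1.5, and 2419 and 302 by total counts. Of the partner genes, 2 were higher and 11 lower. These became 1 and 7 under the 10 CPM filter, 6 and 4 with FPKM, 6 and 17 at a fold of 1.5, 6 and 5 by total counts, and 4 and 7 without ribosomal RNA.

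For Ter119-low over control, mitochondrial genes higher (0) were 1 at a fold of 1.5 and by total counts, and those lower (1) were 0 under the 10 CPM filter, with 2 counts added, with FPKM and by total counts. All genes higher (307) and lower (292) were 17 and 14 under the 10 CPM filter and 543 and 519 at a fold of 1.5. Partner genes higher (0) were 1 with FPKM, by total counts and without ribosomal RNA and 2 at a fold of 1.5, and those lower (1) were 0 under the 10 CPM filter and 5 at a fold of 1.5.

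For Drosha-null over Ter119-low, cytosolic genes lower (0) were 5 at a fold of 1.5, and the cytosolic median (−0.47) was −0.13 with FPKM, −0.14 by total counts, −0.31 by abundance classes and −0.33 without ribosomal RNA. Mitochondrial genes higher (0) were 1 with FPKM, at a fold of 1.5 and by total counts, and those lower (0) were 3 at a fold of 1.5. The mitochondrial median (−0.19) reversed to 0.15 with FPKM and by total counts. All genes higher (1170) and lower (641) were 406 and 255 under the 10 CPM filter, 1873 and 345 with FPKM, 1961 and 1603 at a fold of 1.5, and 1975 and 312 by total counts. Partner genes higher (1) were 0 under the 10 CPM filter, 2 with DESeq2 scaling, abundance classes or no ribosomal RNA, and 3 with FPKM, at a fold of 1.5 and by total counts, while those lower (7) were 4 under the 10 CPM filter, 3 with FPKM and by total counts, and 15 at a fold of 1.5. Depth limits the mitochondrial genes most, as 0 of the 4 calls among them rest on more than 61 counts in the higher library.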
